A study of Mus musculus with 2 samples.

Results

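The receptors for the Fc end of IgG were followed across the myeloid and B cells of inflamed mouse temporomandibular joint (TMJ). The members were taken by gene symbol: the activating receptors Fcgr1, Fcgr3 and Fcgr4, the inhibitory receptor Fcgr2b, and Fcer1g, which encodes the common γ chain. All 5 were found among the 32285 genes of the count tables. The samples were 2 single cell libraries of TMJ from female C57BL/6 mice aged 8 to 10 weeks, and in both groups the joint had been injected with CFA (complete Freund's adjuvant), an oil with killed mycobacteria that provokes lasting inflammation. One group was wild type (WT CFA) and the other was heterozygous for a mutation of Prox1, the transcription factor that sets lymphatic endothelial identity (Prox1 mutant CFA, Prox1+/-). The sources used here name no promoter or Cre that would limit the Prox1 change to a cell type, and the number of mice behind each library was not given in the sources used here. With 1 library per group there was no test of the genotype, and each interval below is a 95% interval of counting error only, which takes no account of differences between mice or preparations.

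Fcγ receptors bind the Fc part of IgG in immune complexes or on coated cells. Fcgr1 binds single IgG molecules with high affinity, whereas Fcgr3 and Fcgr4 need complexed IgG. These activating receptors signal through the γ chain of Fcer1g, whose ITAM motif is phosphorylated by Src-family kinases and recruits Syk, and which is also needed to bring the receptors to the cell surface. Fcgr2b is a single-chain receptor with an ITIM motif that recruits the phosphatase SHIP1 and dampens the signal, and it is the main Fcγ receptor of B cells. The balance of activating to inhibitory receptors on a cell sets how readily IgG complexes trigger phagocytosis and cytokine release in an inflamed joint.

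In the GRCm38 build, 4 of the 5 members lie on chromosome 1 within 0.276 Mb: Fcgr2b at chr1:170958617-170976547 on the minus strand, Fcgr4 at chr1:171018920-171029761 on the plus strand, Fcgr3 at chr1:171051174-171064935 on the minus strand and Fcer1g at chr1:171229572-171234365 on the minus strand. Fcgr1 is at chr3:96282909-96293969 on the minus strand. Gm38204 overlaps Fcgr2b on the other strand. Small RNA genes lie inside Fcgr3 (Mir6546) and Fcgr4 (Gm26110) on the same strand. Reads over these small RNA genes could be split or left out in counting if the reference used held them. All 5 matched a RefSeq promoter (GRCm38.p6), with 6 entries in all because Fcgr3 has a pair of start sites. The 150 bases before the start are shown for the 4 receptors because their order across the cell classes differed. Capitals mark GAGGAA or its reverse complement TTCCTC, the core that the myeloid factor PU.1 binds, and TTCNNNGAA, the core that STAT dimers bind, both searched on both strands.

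Fcgr1, chr3:96293970-96294119, minus strand: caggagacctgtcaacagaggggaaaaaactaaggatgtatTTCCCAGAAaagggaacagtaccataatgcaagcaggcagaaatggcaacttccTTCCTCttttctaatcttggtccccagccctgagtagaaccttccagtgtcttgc
Fcgr4, chr1:171018776-171018925, plus strand: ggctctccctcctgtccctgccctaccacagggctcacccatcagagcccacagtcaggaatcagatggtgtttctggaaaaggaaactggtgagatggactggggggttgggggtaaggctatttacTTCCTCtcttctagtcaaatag
Fcgr3, first entry, chr1:171059404-171059553, minus strand: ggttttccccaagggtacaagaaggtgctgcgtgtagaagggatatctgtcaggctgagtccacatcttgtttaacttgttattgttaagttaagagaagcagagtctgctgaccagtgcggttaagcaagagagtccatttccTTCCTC
Fcgr2b, chr1:170976072-170976221, minus strand: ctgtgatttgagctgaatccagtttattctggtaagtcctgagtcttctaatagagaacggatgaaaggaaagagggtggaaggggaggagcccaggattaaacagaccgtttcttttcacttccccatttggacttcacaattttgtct

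The 3 activating receptors each held TTCCTC in this stretch, ending 50 bases before the start in Fcgr1, 17 in Fcgr4 and 1 in Fcgr3. Fcgr1 alone of the 4 held TTCNNNGAA, at -109 to -101. Fcgr2b and Fcer1g held neither in these letters. Such matches are common: 28.3% of all 32851 RefSeq promoter windows of 300 bases held GAGGAA on either strand and 8.30% held TTCNNNGAA, so a match describes the sequence and shows no binding.

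After the filter on genes and mitochondrial UMIs, 4352 WT and 5757 mutant cells were kept, with a median of 6997 and 4848 UMIs. Prox1 was at 11.6 CPM (UMIs per 1000000 UMIs) in WT and 5.80 CPM in mutant cells. Haemoglobin genes took 3.39% of UMIs in WT and 8.76% in mutant, so the libraries differed in red cell RNA, and 4 kept barcodes occurred in both libraries. Cells were clustered with the Fc receptor genes removed from the features, and classes were named from marker lists. The share of cells left unnamed was 14.9% in WT and 26.5% in mutant, among them 154 and 498 myeloid cells in 4 subclusters. The largest of these (51 WT and 232 mutant cells) had fibro-macrophages as its best match, with Col1a1, Sparc and Col1a2 among its leading genes. It stayed unnamed because markers of another class led it, haemoglobin genes first. The study reports fibro-macrophages as a new macrophage population that is increased in the mutant. No class described below stands for them.

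The 7 myeloid classes carried the markers of their names. M1-like macrophages (263 WT and 195 mutant cells) had 7 of 7 markers of their list raised, Mmp12 and Spp1 among their leading genes. The list was Nos2, Mmp12, Spp1, Arg1, Inhba, Il1a and Fabp5, of which the study gives Nos2, Mmp12 and Spp1 for M1-like cells. The name is a label from this list and does not measure the state of activation. Cxcl9-positive macrophages (148 and 181 cells) had 5 of 8 interferon-response markers raised. M2-like macrophages (78 and 98 cells) had 6 of 9 resident-type markers raised, with Mrc1 and Folr2 leading, and monocytes (76 and 87 cells) had 6 of 7. Myeloid progenitors (62 and 79 cells) were led by Mpo, Ctsg and Elane. Immature neutrophils (135 and 168 cells) carried Ltf, Camp and Ngp, and mature neutrophils (175 and 164 cells) had 8 of 8 markers raised, Il1f9 and Asprv1 among the leading genes. Fcgr1 was among the 10 leading genes of the Cxcl9-positive subcluster although it was not used to form it. The monocyte subcluster was led by Vcan and Ccr2, with Dpp4, Btla and Cd244a beside them. B cells (147 and 119 cells) carried Cd79a and Cd79b, but 26 WT and 71 mutant B cells lay in subclusters led by neutrophil or macrophage genes such as Retnlg, Il1b and C1qb. Those subclusters stayed unnamed with mature B cells as the best match, and Igha and Igkc were also among their leading genes. Vpreb3, Pax5, Igll1 and Vpreb1 led the class as a whole. The only subcluster with a stage name was early B cells (pro-B and pre-B), with 46 and 26 cells.

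Of the activating receptors, Fcgr1 varied most across the classes. Fcgr1 was highest in M2-like macrophages, at 264 CPM in WT and 251 CPM in mutant, followed by Cxcl9-positive macrophages at 182 and 223 CPM. Monocytes stood at 89.3 and 81.6 CPM. M1-like macrophages, the class with the most UMIs per cell, held only 35.0 and 35.2 CPM. The level in M2-like cells was 7.53-fold that in M1-like cells in WT (6.37 to 8.89) and 7.12-fold in mutant (6.09 to 8.34), so the subsets stood in the same order in both libraries. Below them, progenitors (23.4 and 22.0 CPM), mature neutrophils (17.2 and 11.6 CPM, 11 UMIs in each library) and immature neutrophils (7.46 and 3.19 CPM) did not differ from the next in order beyond counting error, whereas M1-like cells exceeded progenitors in both libraries. B cells held 2 and 4 Fcgr1 UMIs. In the larger classes that should lack the receptor, endothelial, mesenchymal, Schwann and smooth muscle cells, taken below as the background classes, Fcgr1 was between 0 and 2.45 CPM. Other non-myeloid classes held more: epithelial cells were at 16.8 CPM in WT and 11.4 CPM in mutant, T cells at 60.8 and 3.46 CPM, and chondrocytes at 0 and 23.8 CPM, each on at most 21 UMIs. The neutrophil, progenitor and B cell levels of Fcgr1, and the M1-like level in WT, therefore do not stand clear of these classes.

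**Figure D1:**
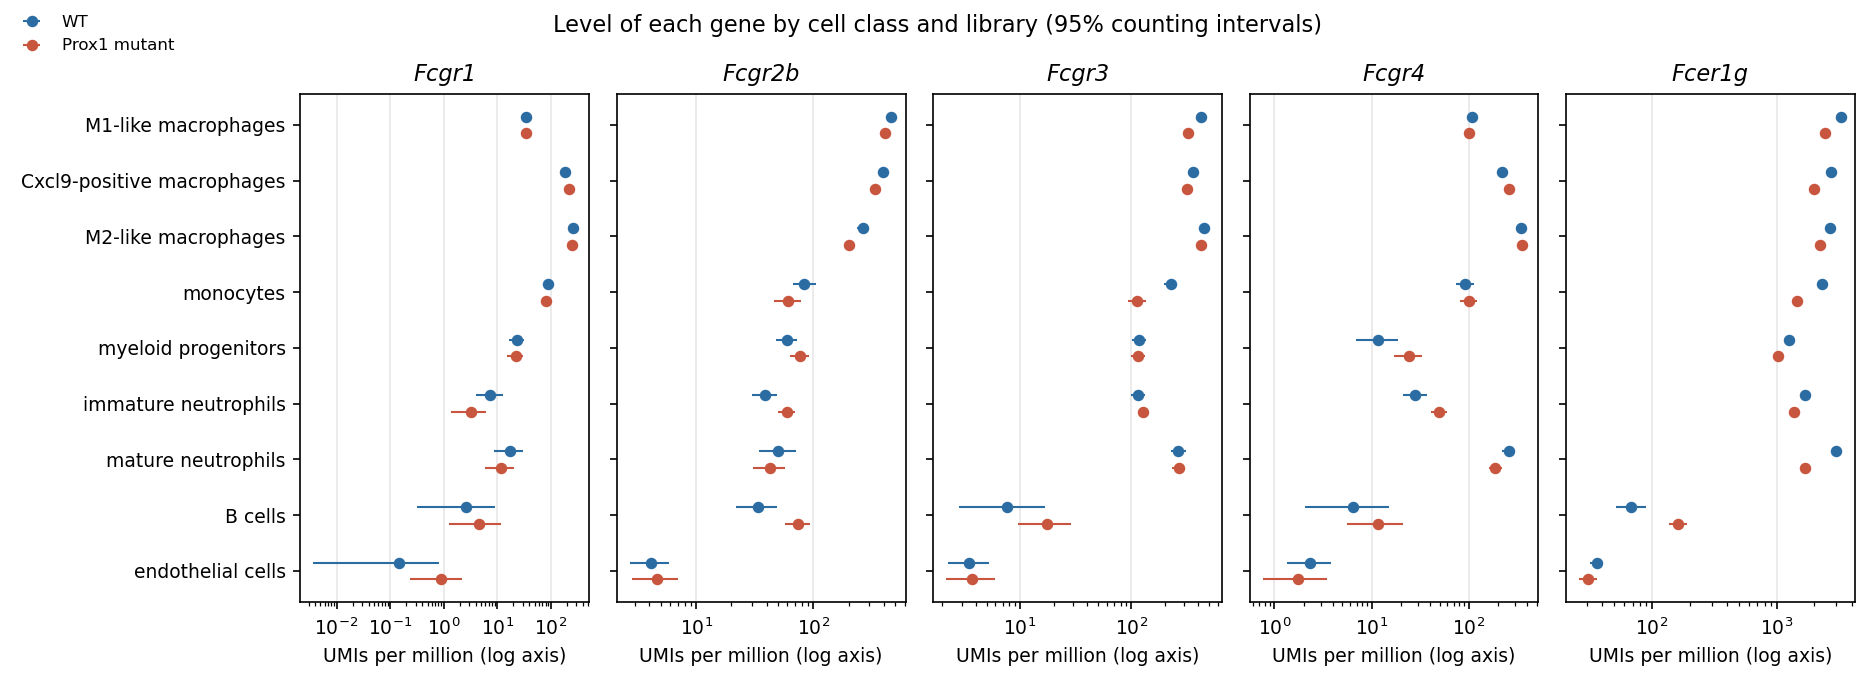
Level of each member, in CPM on a log axis, in the 8 classes and, as background, endothelial cells of the WT (blue) and the mutant (red) library; points are summed UMIs and bars are exact Poisson 95% intervals. Fcgr1 and Fcgr4 are highest in M2-like macrophages, Fcgr2b peaks in M1-like macrophages, and Fcer1g stays above 1000 CPM in every myeloid class.

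Fcgr4 followed Fcgr1 among the macrophages but not among the neutrophils. M2-like macrophages held 342 CPM in WT and 352 CPM in mutant, and Cxcl9-positive macrophages held 221 and 261 CPM. M1-like macrophages held 109 and 101 CPM and did not differ from monocytes, at 91.5 and 101 CPM, beyond counting error. Mature neutrophils reached 257 CPM in WT and 187 CPM in mutant, against 28.1 and 49.5 CPM in immature neutrophils. The step from immature to mature neutrophils was thus 9.14-fold in WT (6.61 to 12.9) and 3.79-fold in mutant (2.99 to 4.80). Progenitors were low at 11.7 and 24.0 CPM, and B cells held 5 and 10 UMIs. The background classes ranged from 1.10 to 7.75 CPM. Epithelial cells were at 33.5 CPM in WT (6 UMIs) and 38.2 CPM in mutant, T cells at 37.6 and 10.4 CPM, and chondrocytes at 1.07 and 34.7 CPM. The Fcgr4 levels of progenitors and B cells, and of immature neutrophils in WT, therefore do not stand clear of non-myeloid cells.

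Fcgr3 was the most even of the receptors over the myeloid classes. M2-like macrophages held 454 CPM in WT and 424 CPM in mutant. M1-like macrophages held 421 and 324 CPM, which in WT did not differ from M2-like cells beyond counting error, and Cxcl9-positive macrophages 356 and 317 CPM. The highest myeloid class exceeded the lowest by only 3.96-fold in WT and 3.74-fold in mutant. Mature neutrophils held 265 and 266 CPM, above immature neutrophils (115 and 127 CPM) by 2.31-fold and 2.09-fold. Monocytes held 227 CPM in WT but 113 CPM in mutant, so their place in the order moved from above to level with the progenitors (118 and 116 CPM). B cells were at 7.72 and 17.3 CPM, with background classes at 2.20 to 9.04 CPM. Other classes held more: T cells were at 81.0 and 34.6 CPM and epithelial cells at 61.4 and 90.6 CPM. Mast cells and basophils were at 138 and 69.4 CPM, and chondrocytes at 3.22 and 36.6 CPM. The Fcgr3 level of B cells therefore does not stand clear of these classes. The levels of progenitors, immature neutrophils and mutant monocytes lie near the highest of them, mast cells and basophils in WT (20 UMIs). Of the other classes named here, epithelial cells in mutant were highest, at 90.6 CPM.

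Fcgr2b, the inhibitory receptor, stood in the opposite order to Fcgr1 and Fcgr4 among the macrophages. M1-like macrophages were highest at 457 CPM in WT and 407 CPM in mutant. Cxcl9-positive macrophages held 395 and 336 CPM and M2-like macrophages 264 and 200 CPM (199.69 in mutant). M1-like cells exceeded M2-like cells by 1.73-fold in WT (1.53 to 1.97) and 2.04-fold in mutant (1.84 to 2.27). Monocytes, at 83.9 and 60.7 CPM, were 5.45-fold and 6.71-fold below M1-like macrophages. Progenitors held 59.1 and 76.1 CPM, immature neutrophils 38.5 and 59.5 CPM and mature neutrophils 49.9 and 42.4 CPM. The mature to immature ratio of neutrophils was 1.30 in WT (0.82 to 2.0) and 0.712 in mutant (0.489 to 1.02), and both intervals spanned 1. In B cells Fcgr2b stood at 33.4 and 73.8 CPM, on 26 and 64 UMIs, with the background classes at 4.06 to 15.5 CPM. Epithelial cells (201 and 121 CPM) and, in WT, T cells (86.8 and 20.8 CPM) held more Fcgr2b than B cells. They also held more than monocytes, progenitors and neutrophils of both stages. The Fcgr2b levels of all these classes therefore do not stand clear of non-myeloid cells.

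Fcer1g was the most abundant and the least variable member. M1-like macrophages held 3268 CPM in WT and 2454 CPM in mutant. Mature neutrophils came next in WT at 2978 CPM but held 1683 CPM in mutant. Cxcl9-positive macrophages held 2709 and 1995 CPM, M2-like macrophages 2645 and 2210 CPM, and monocytes 2313 and 1463 CPM. Immature neutrophils (1691 and 1378 CPM) and progenitors (1253 and 1021 CPM) were lowest. The highest myeloid class exceeded the lowest by 2.61-fold in WT and 2.40-fold in mutant. B cells held 68.2 and 162 CPM, and the background classes 24.4 to 61.9 CPM. The few T cells (46 and 85) held more, at 874 and 367 CPM, as did epithelial cells at 720 and 606 CPM. Mast cells and basophils were at 2273 and 948 CPM.

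Shares of cells with a UMI moved with depth, since M1-like macrophages had a median of 31527 UMIs in WT and mature neutrophils 2869. With every cell thinned to 2000 UMIs, Fcgr2b was found in 57.6% of WT and 53.8% of mutant M1-like macrophages, and in 6.98% and 4.72% of mature neutrophils. Without thinning these shares were 98.5% and 95.9%, and 13.1% and 14.0%. Thinned Fcgr4 was found in 43.4% and 45.9% of M2-like macrophages, 34.1% and 24.4% of mature neutrophils, and 17.6% and 16.9% of M1-like macrophages. Thinned Fcgr1 was found in 36.8% and 32.7% of M2-like macrophages, 27.7% and 38.7% of Cxcl9-positive macrophages, and 6.49% and 7.18% of M1-like macrophages. Unthinned, the Fcgr1 shares of M1-like cells were 42.6% and 41.0%. Thinned Fcer1g was found in 99.6% and 97.9% of M1-like macrophages and 99.2% and 95.3% of mature neutrophils. In the background classes the thinned shares reached at most 1.49% for Fcgr1, 2.27% for Fcgr2b, 2.05% for Fcgr4 and 13.04% for Fcer1g. The B cell shares of Fcer1g, 15.1% and 7.45%, therefore lay near background and ran against the CPM values, and no order was read from them.

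**Figure D2:**
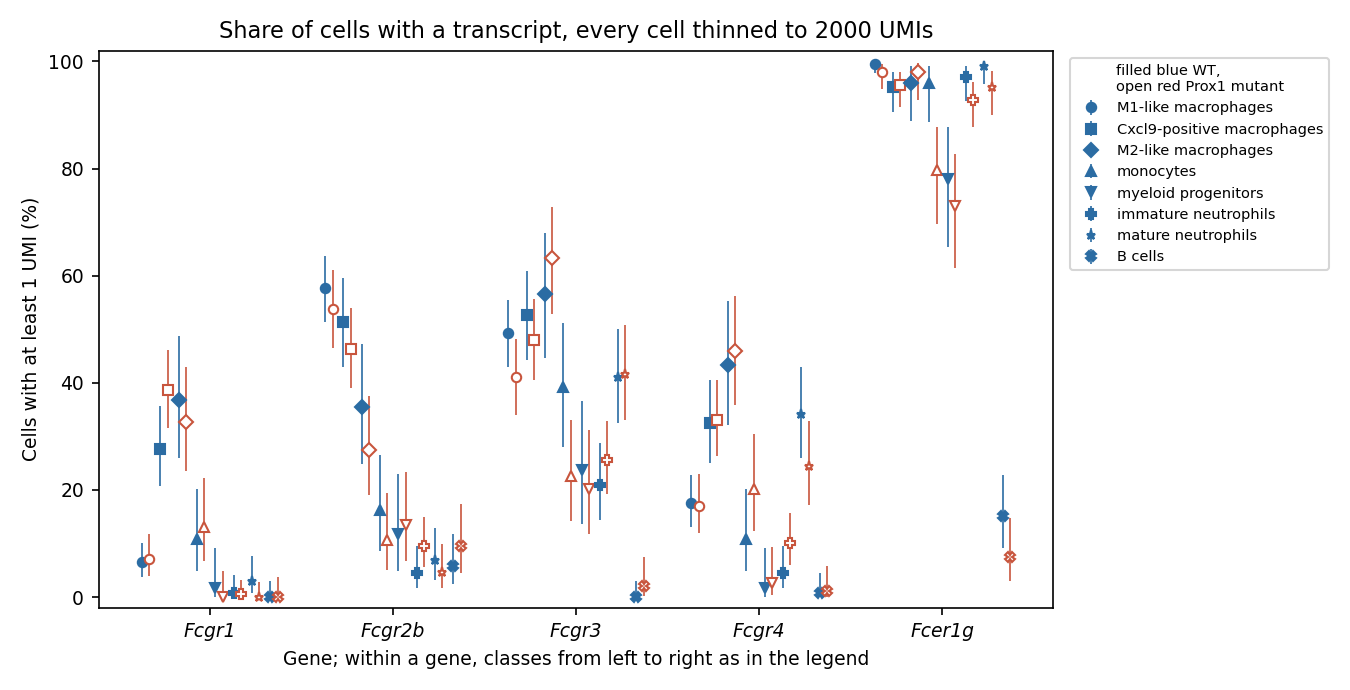
Share of cells with at least 1 UMI of each member after thinning every cell to 2000 UMIs, by class and library, with exact Clopper-Pearson 95% intervals; cells under 2000 UMIs were left out. Fcgr2b is found in 57.6% of WT M1-like macrophages and 6.98% of WT mature neutrophils, while Fcer1g is found in most cells of every myeloid class.

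Because the UMIs tag 1 end of each transcript, they were added over receptors without scaling by length, and the mix below is a mix of UMIs and not of protein. In M1-like macrophages Fcgr2b made 44.8% of receptor UMIs in WT and 47.0% in mutant, with Fcgr3 at 41.2% and 37.3%. In M2-like macrophages the mix was led by Fcgr3 (34.3% and 34.6%) and Fcgr4 (25.8% and 28.7%), and Fcgr2b made 19.9% and 16.3%. Mature neutrophils carried Fcgr3 (45.0% and 52.4%) and Fcgr4 (43.7% and 37.0%) for the most part, with Fcgr2b at 8.47% and 8.35%. In B cells Fcgr2b made 66.7% of 39 receptor UMIs in WT and 68.8% of 93 in mutant. This blends the B cells in subclusters led by other lineages (50% of 18 and 64.9% of 74) with the rest (81.0% of 21 and 84.2% of 19).

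The UMIs of the 3 activating receptors over those of Fcgr2b gave a ratio for each class. M1-like macrophages were lowest of the myeloid classes at 1.23 in WT (1.18 to 1.29) and 1.13 in mutant (1.07 to 1.19). Cxcl9-positive macrophages were at 1.92 and 2.38, M2-like macrophages at 4.02 and 5.14, and monocytes at 4.86 and 4.87. Mature neutrophils were highest at 10.8 (7.52 to 16.1) and 11.0 (7.93 to 15.6). Immature neutrophils were at 3.91 and 3.03 and progenitors at 2.58 and 2.12. B cells, at 0.5 and 0.453, were the class with more inhibitory than activating UMIs, on few counts. Of the 3 named macrophage subsets, M1-like cells had the lowest ratio in both libraries. Among the 4 unnamed myeloid subclusters, which hold myeloid cells without a subset name, 1 was lower still, at 0.918 in WT (0.649 to 1.30) and 0.596 in mutant (0.464 to 0.762). The unnamed subcluster matched to fibro-macrophages was at 1.97 in WT (1.75 to 2.22) and 2.25 in mutant (2.04 to 2.50). Its activating receptors stood at 80.3 and 81.6 CPM (Fcgr1), 297 and 227 CPM (Fcgr3) and 157 and 168 CPM (Fcgr4). Fcgr2b stood there at 271 and 211 CPM, and Fcer1g at 2552 and 1551 CPM.

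**Figure D3:**
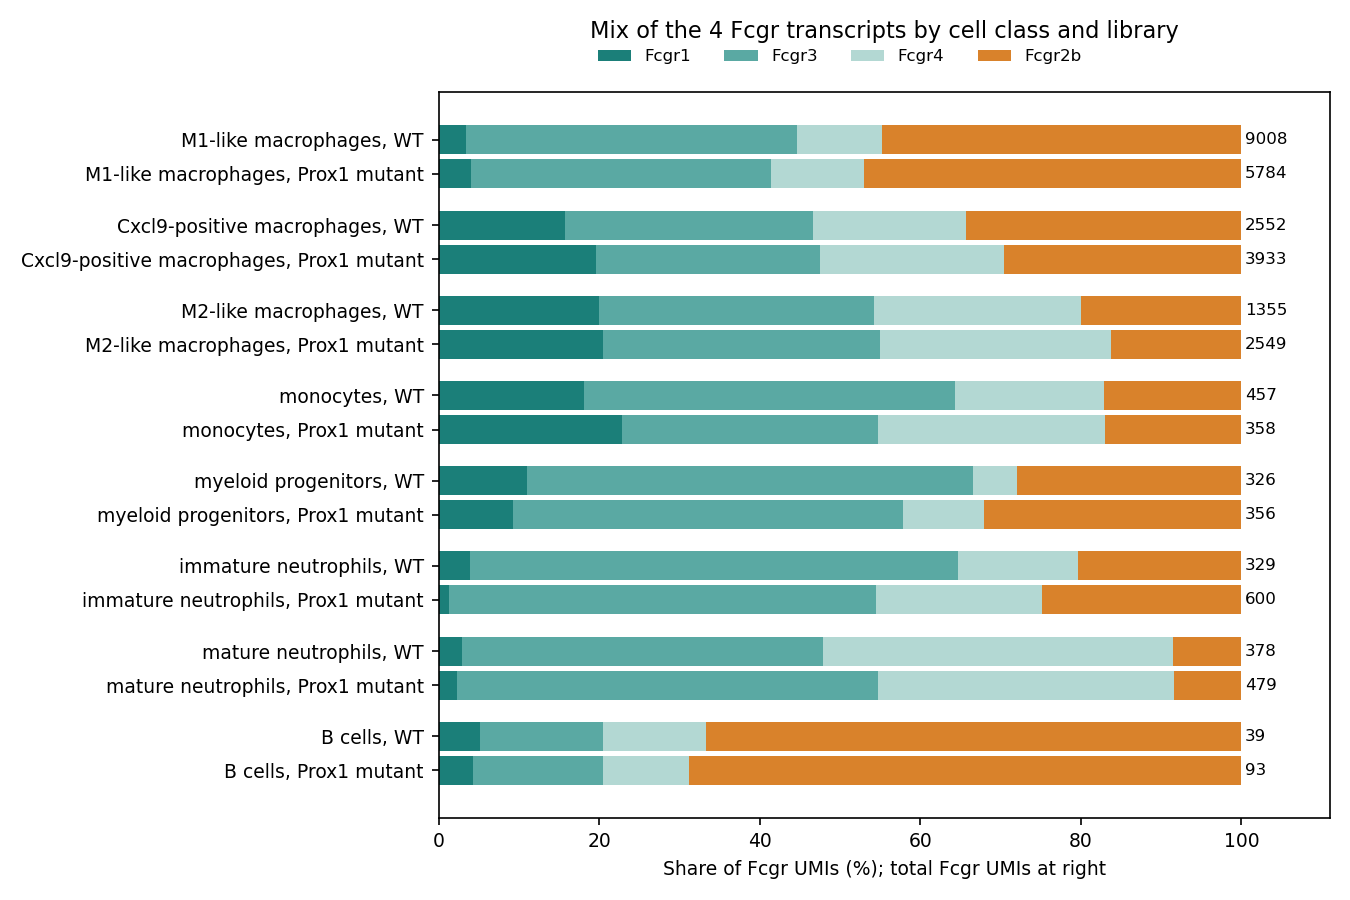
Share of receptor UMIs, in percent, from Fcgr1, Fcgr3, Fcgr4 (greens) and Fcgr2b (orange) in each class and library, with the total receptor UMIs at the right of each bar. Fcgr2b makes 44.8% of receptor UMIs in WT M1-like macrophages and 8.47% in WT mature neutrophils.

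With all UMIs counted, both kinds of receptor were found in most macrophages. UMIs of an activating receptor and of Fcgr2b were found together in 95.4% of M1-like cells in both libraries, in 89.9% and 90.1% of Cxcl9-positive cells and in 85.9% and 81.6% of M2-like cells. All 4 receptors were found together in 34.2% and 30.3% of M1-like cells, against 62.8% and 69.1% of Cxcl9-positive and 52.6% and 68.4% of M2-like cells, although M1-like cells were the deepest. Mature neutrophils held both kinds in 8.57% and 12.2% of cells, and an activating receptor alone in 58.3% and 58.5%. After thinning, both kinds were found in 34.4% and 28.2% of M1-like, 45.3% and 32.6% of Cxcl9-positive and 30.3% and 23.5% of M2-like cells, and in 3.88% and 3.15% of mature neutrophils. At equal depth the M1-like cells were thus no longer first.

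The mutant library was then set against WT within each class. A member was called higher or lower where it had at least 50 UMIs over both libraries, the CPM differed by at least 1.5-fold and the interval of the ratio excluded 1. Of the 40 pairs of member and class, 35 had the UMIs, and 5 of these were higher and 3 lower in mutant. Over the 8 classes, between 6.3% and 16.6% of all genes were called higher and between 3.85% and 14.2% lower. In macrophages and monocytes together (565 WT and 561 mutant cells) none of the 5 members was called, while 14.7% of 11210 genes were higher and 4.4% lower, with an all-gene median log2 ratio of 0.19. Fcgr1 had a log2 ratio of 0.57 (0.46 to 0.69) and Fcgr4 of 0.33 (0.24 to 0.42). Fcgr2b stood at -0.30 (-0.35 to -0.24), Fcgr3 at -0.31 (-0.37 to -0.25) and Fcer1g at -0.46 (-0.48 to -0.44).

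For Fcgr1 and Fcgr4 the pooled ratio was larger than that within the subsets. Fcgr1 had a log2 ratio of 0.01 in M1-like, 0.30 in Cxcl9-positive, -0.07 in M2-like macrophages and -0.13 in monocytes. With the 4 subsets weighted equally, the log2 ratio was 0.052 for Fcgr1 and 0.095 for Fcgr4. The make-up of the pool differed between the libraries: M1-like macrophages, low in Fcgr1, gave 67.9% of its UMIs in WT and 50.5% in mutant, and M2-like macrophages, high in Fcgr1, gave 7.89% and 15.7%. Fcgr2b and Fcgr3 kept most of their difference, at -0.26 and -0.31 with equal weights. Fcgr2b was below 0 in all 4 subsets, at -0.17 in M1-like, -0.23 in Cxcl9-positive and -0.40 in M2-like macrophages and -0.47 in monocytes. No member was called in the 3 macrophage subsets, where the share of genes called higher was 15.5% (M1-like), 9.24% (Cxcl9-positive) and 6.3% (M2-like), and the share called lower was 3.85%, 5.74% and 5.14%.

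**Figure D4:**
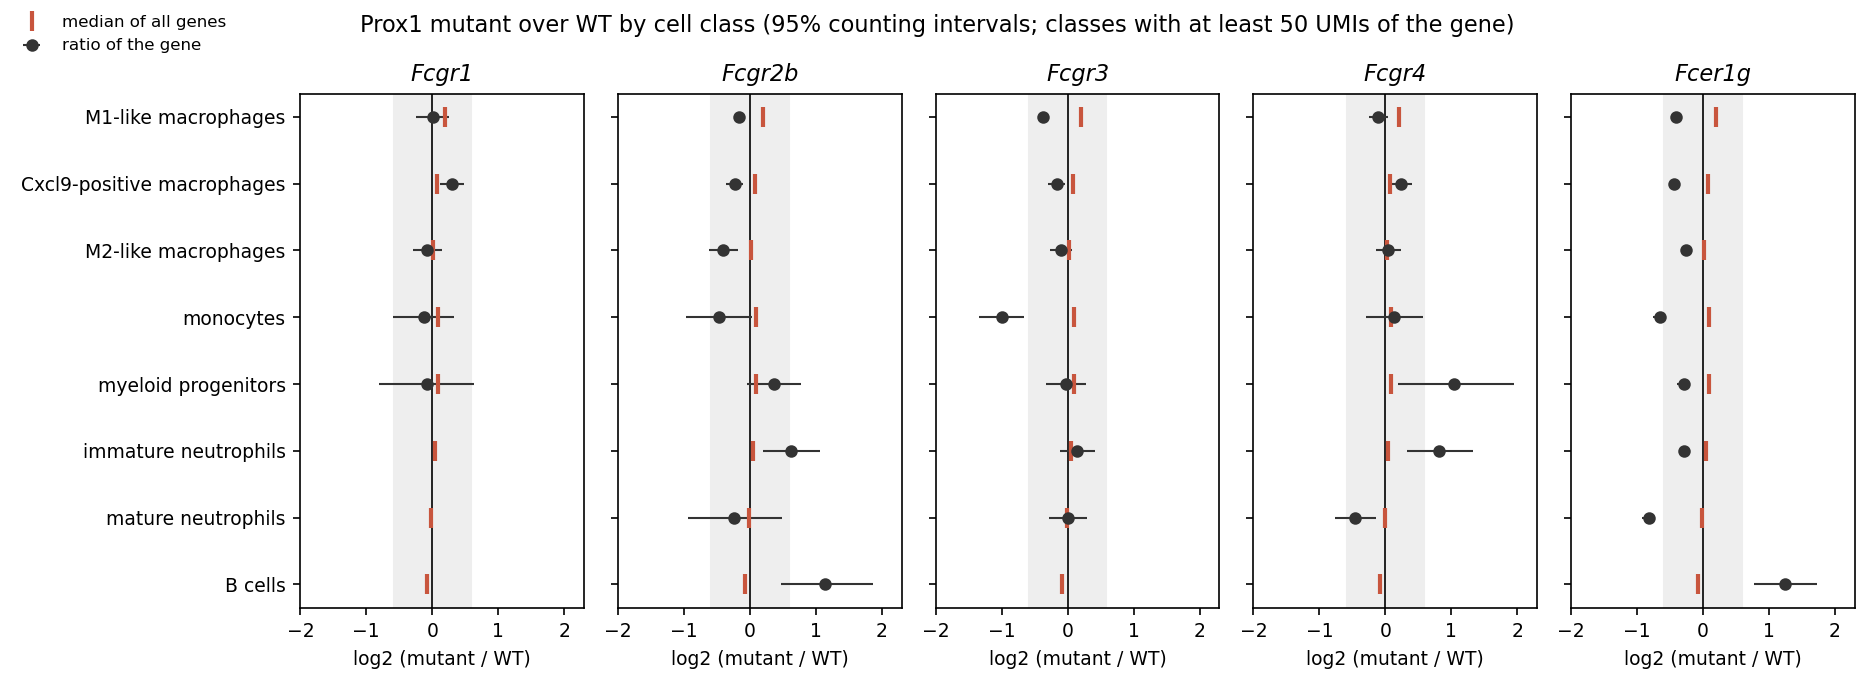
Log2 ratio of mutant over WT CPM for each member in each class, with exact conditional 95% intervals of counting error, where it had at least 50 UMIs; red ticks mark the all-gene median of the class and the grey band ratios under 1.5-fold. Fcer1g lies below 0 in all 7 myeloid classes and above 0 in B cells, whereas the other members lie on both sides of 0.

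Fcer1g was lower in the mutant library throughout the myeloid cells. Its log2 ratio was -0.41 in M1-like, -0.44 in Cxcl9-positive and -0.26 in M2-like macrophages, -0.66 in monocytes, -0.30 in progenitors, -0.30 in immature and -0.82 (-0.92 to -0.73) in mature neutrophils. The interval lay below 0 in 7 of 7 classes, and the ratio was also below 0 in the 4 unnamed myeloid subclusters (-0.43 to -1.36). The 1.5-fold rule was met in monocytes, where 10.5% of genes were lower and 16.6% higher, and in mature neutrophils, where 13.3% were lower and 11.3% higher. It was missed in monocytes without integration (-0.51) and in mature neutrophils taken by UMI gates (-0.52), and met in the other 10 and 11 alternatives. The mature neutrophil gate took 480 WT and 658 mutant cells, of which 162 and 154 were in the clustered class. Of 107 genes above 1000 CPM in macrophages and monocytes, the median log2 ratio was -0.19, and 30.8% lay at or below Fcer1g. Of 119 such genes in mature neutrophils the median was -0.08 and 8.40% lay at or below Fcer1g. Within the macrophage and monocyte subsets this share ran from 19.6% (monocytes) to 29.4% (Cxcl9-positive). It was 48.1% of 54 genes in immature neutrophils (median -0.28) and 62.0% of 129 genes in progenitors (median -0.39). Tyrobp, which encodes DAP12, the other ITAM adaptor of these cells, had a log2 ratio of -0.48 in macrophages and monocytes and -0.38 in neutrophils. In macrophages and monocytes the 12 macrophage markers summed to 39828 CPM in WT and 28406 CPM in mutant, with 1 higher and 3 lower. Neutrophil markers summed to 1043 and 2119 CPM there (6 of 10 higher), and erythrocyte markers to 68.6 and 1521 CPM (6 of 6 higher). The part of these differences in the Fcer1g ratio was not tested. In the background classes Fcer1g had a log2 ratio of -0.78 in mesenchymal, -0.70 in Schwann, -0.22 in endothelial and 0.24 in smooth muscle cells. Of further named classes, Fcer1g was called lower in T cells (-1.25), mast cells and basophils (-1.26), muscle cells (-2.59), and osteocytes and osteoblasts (-1.90). It was called higher in erythrocytes (0.63), chondrocytes (3.04) and adipocytes (3.86, on 1 UMI in WT and 80 in mutant). The share of all genes called was not counted in these further classes, so their calls cannot be set against it. Depth also differed, with a chondrocyte median of 32750 UMIs in WT and 3342 in mutant. Over all kept cells the log2 ratio of Fcer1g was -0.40. Whether the myeloid difference is part of a difference between the libraries was not tested.

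In monocytes Fcgr3 was lower along with Fcer1g, at 0.50 of the WT level (0.39 to 0.63), with 211 UMIs in WT and 114 in mutant. Fcgr1 (-0.13), Fcgr4 (0.14) and Fcgr2b (-0.47) were not called in these cells. The summed level of the 9 monocyte markers was 13241 CPM in WT and 7994 CPM in mutant, with 5 of 9 lower. The summed level of 10 dendritic cell markers was 1004 and 2443 CPM, with 4 of 4 tested higher, Cd209a and Ccr7 at 0 in WT and Siglech at 0 in mutant. The 6 erythrocyte markers summed to 63.5 and 3057 CPM. The part of these differences in the receptor levels was not tested.

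Among the neutrophils the calls were in the immature class for the receptors and in the mature class for the adaptor, and the difference between the stages was not tested. In immature neutrophils Fcgr2b (38.5 to 59.5 CPM, log2 ratio 0.63, 0.20 to 1.07) and Fcgr4 (28.1 to 49.5 CPM, 0.82, 0.33 to 1.32) were higher in mutant, where 8.64% of genes were higher and 8.17% lower. The Fcgr2b ratio was under 1.5-fold in 4 of 11 alternatives (0.36 to 0.43), and the Fcgr4 ratio in 0 of 11. Only the fold was checked in the alternatives, not the minimum of UMIs or the interval. In this class the 9 progenitor markers summed to 1078 CPM in WT and 396 CPM in mutant (5 of 6 tested lower), the 7 mesenchymal markers to 425 and 105 CPM (4 of 5 lower, Lum at 0 in mutant), and the monocyte markers to 8710 and 6698 CPM (5 of 9 lower). The 6 erythrocyte markers summed to 1091 and 2514 CPM (4 of 4 tested higher). Their part in the receptor levels was not tested. In mature neutrophils Fcgr4 had a log2 ratio of -0.46 (-0.77 to -0.14) and was not called, and Fcgr3 was level at 0.00. The summed level of 10 neutrophil markers in the mature class was 71637 CPM in WT and 109547 CPM in mutant, with 5 of 10 higher. Erythrocyte markers in this class summed to 112 and 4383 CPM, with 5 of 5 tested higher and Slc4a1 and Alas2 at 0 in WT. Their part in the Fcer1g difference was not tested. In progenitors Fcgr4 was higher, at 18 UMIs in WT and 36 in mutant (log2 ratio 1.04, 0.19 to 1.94), where 14.2% of genes were higher and 7.3% lower. This call was lost with doublets removed (0.093) and with thinning (-0.33). The 10 neutrophil markers in progenitors summed to 2913 and 7478 CPM, with 7 of 8 tested higher. Mast cell and basophil markers summed to 3.25 and 705 CPM there (2 of 2 tested higher), and erythrocyte markers to 840 and 4231 CPM (2 of 4 higher). The progenitor markers themselves summed to 12370 and 7498 CPM, with 4 of 9 lower. The part of these differences in Fcgr4 was not tested either.

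In B cells both members with enough UMIs were higher in mutant, Fcgr2b with a log2 ratio of 1.14 (0.46 to 1.86) and Fcer1g with 1.24 (0.78 to 1.73), where 13.6% of genes were higher and 14.2% lower. With thinning the Fcer1g ratio was 0.19. The B cells in subclusters led by genes of other lineages were 17.7% of the class in WT and 59.7% in mutant. These cells held Fcgr2b at 110 and 112 CPM (9 and 48 UMIs) and Fcer1g at 282 and 293 CPM (23 and 126 UMIs). Neither differed between the libraries beyond counting error, with wide log2 intervals of -1.03 to 1.23 and -0.59 to 0.77. Without them, 121 WT and 48 mutant B cells remained, with Fcgr2b at 24.4 and 36.6 CPM (17 and 16 UMIs) and Fcer1g at 43.1 and 32.0 CPM (30 and 14 UMIs). These counts are under the minimum of 50, and the Fcer1g ratio of -0.43 has an interval of -1.46 to 0.53, so neither call was met and no direction can be read. Over all B cells the neutrophil markers summed to 387 CPM in WT and 2391 CPM in mutant (6 of 7 tested higher, Mmp8 and Cxcr2 at 0 in WT), and the macrophage markers to 553 and 1141 CPM (3 of 3 higher). Erythrocyte markers summed to 105 and 6271 CPM. B cell markers summed to 19189 and 14801 CPM, with 1 of 8 higher and 3 lower.

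The activating-to-inhibitory ratio differed between the libraries with opposite signs in the macrophage subsets. On the log2 scale, mutant minus WT was -0.13 in M1-like macrophages (-0.23 to -0.03), 0.31 in Cxcl9-positive macrophages (0.15 to 0.47) and 0.36 in M2-like macrophages (0.10 to 0.61). It was 0.00 in monocytes (-0.55 to 0.56), -0.37 in immature neutrophils (-0.86 to 0.12) and 0.02 in mature neutrophils. For macrophages and monocytes together the ratio was 1.55 in WT and 1.90 in mutant, a difference of 0.30 (0.22 to 0.37) that came to 0.15 with the 4 subsets weighted equally.

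Genes that act with these receptors were counted from fixed lists. Of 46 genes of Fc receptor signalling, 46 were tested in macrophages and monocytes, and 6 were higher and 0 lower, beside 14.7% and 4.4% of all genes, with a median log2 ratio of 0.21 beside 0.19 over all genes. Fyn, a Src-family kinase, had the largest ratio at 0.98, followed by the PI3K adaptor Pik3ap1 at 0.91, the NADPH oxidase subunit Ncf1 at 0.86 and the kinase Btk at 0.73. Syk itself stood at 0.32 and Inpp5d, which encodes SHIP1, at 0.58, and neither was called. In neutrophils of both stages 40 were tested and 1 was higher, Fyn at 0.73, where 8.48% of genes were higher and 9.27% lower. The median of the list there was 0.19 beside 0.02 over all genes.

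Of 15 other receptors for immunoglobulin, 6 were tested in macrophages and monocytes, where 14.7% of all genes were higher and 4.4% lower. Fcrlb (0.88) and Fcgrt (0.70), the neonatal Fc receptor that recycles IgG, were higher, and Lgals3, which encodes the IgE-binding lectin galectin-3, was lower at -0.64 (2964 CPM in WT and 1909 CPM in mutant). Of 20 genes for adaptors and receptors that partner with Fcer1g, 13 were in the tables and 11 were tested, beside the same shares of all genes. Clec4n, which encodes the γ chain-coupled lectin dectin-2, was lower at -1.28, from 1111 CPM in WT to 458 CPM in mutant, and Pira2 was higher at 0.85. Clec4n was also the 1 gene of this list called in neutrophils, at 330 and 141 CPM (-1.23), where 8.48% of genes were higher and 9.27% lower. Dectin-2 binds fungal mannans and signals through the γ chain.

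Of 15 other receptors with ITIM motifs, 5 were higher in macrophages and monocytes and 0 lower, beside 14.7% and 4.4% of all genes, with a median log2 ratio of 0.48 beside 0.19. Pecam1 (1.41), Cd72 (1.40), Lair1 (0.95) and Siglece (0.88) had the largest ratios. The 6 endothelial markers, Pecam1 among them, summed to 61.5 CPM in WT and 81.6 CPM in mutant macrophages and monocytes, with 2 of 3 tested higher. The 8 B cell markers summed to 51.0 and 124 CPM, with 6 of 6 tested higher. The part of other cell types in the ITIM receptor ratios was not tested. Fcgr2b, an ITIM receptor itself, stood at -0.30 in the same cells. Of 13 immunoglobulin constant genes, 6 were tested, with a median of 1.48, and 5 were higher: Ighd (4.93, on 2 UMIs in WT and 62 in mutant), Iglc2 (2.01), Igha (1.81), Igkc (1.16) and Ighm (0.71). Immunoglobulin genes are transcripts of B lineage cells, and the source of their UMIs in macrophages and monocytes was not tested. The levels were low, with Igkc at 14.8 CPM in WT and 33.0 CPM in mutant.

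The genes around the chromosome 1 members were counted as well, since Prox1 lies on the same chromosome, 18.9 to 19.1 Mb away. The stretch reaching 1 Mb to either side held 74 genes, counting the 4 members themselves. Without the members, 43 were tested in macrophages and monocytes, and 4 were higher and 2 lower (14.0%), beside 19.1% of all genes in either direction. In neutrophils 24 were tested, with 1 higher and 4 lower, beside 8.48% and 9.27% of all genes.

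The genes whose pattern was most like each member were found by the correlation of log2(CPM + 5) over 13 classes in both libraries, 26 points that share libraries and depth, among 12754 genes. Fcgr1 was closest to Aif1 (r = 0.98), Clec4a1 (0.95) and Adgre1 (0.94), and Fcgr2b to Ctss (0.96), Tcirg1 (0.94) and Csf1r (0.93). Fcgr3 was closest to Fcer1g (0.98), Mpeg1 (0.97) and Lyz2 (0.96). Fcgr4 was closest to Cd300c2 (0.96), Lrrc25 (0.95) and Sirpb1c (0.94), and Fcer1g to Tyrobp (0.99), Fcgr3 (0.98) and Lilrb4a (0.97). Between members r ran from 0.79 for Fcer1g with Fcgr1 to 0.98 for Fcer1g with Fcgr3. Of the 13 classes 7 were myeloid, so the contrast of these with the rest weighs on every value.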

How the data were processed

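Single cells of CFA-injected TMJ were profiled in 1 WT and 1 Prox1+/- library. The authors deposited raw UMI counts per gene and cell barcode (5709 and 7846 barcodes, 53517206 and 62446987 UMIs), which per the labels came from Cell Ranger 7.0.1 with mm10. The labels and the study's methods give different kit versions and digestion enzymes, and whether intronic reads were counted is not given in the sources used here. No column was left unmapped.

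Barcodes were retained if they had 500 or more genes and a mitochondrial share below 10%. Counts were normalized by SCTransform, the 2 CFA libraries integrated by anchors on 3000 features, and cells clustered with 200 principal components at a resolution of 1.5 (Seurat 5.3.0, R 4.3.3). The cell filter, SCTransform, anchors, components and resolution followed the study's methods, whereas the Seurat version, the number of features, the libraries integrated and the removal of the Fc receptor genes did not. Myeloid clusters were reclustered (30 components, resolution 0.5) and B cells likewise (20 components). A cluster took the name whose markers had the highest mean ratio, with at least 3 markers at 2-fold or more in at least 10% of cells. Clusters led by another lineage's markers, or shallow ones with none of their own markers leading, stayed unnamed, and the depth limit of this step was chosen after the clusters were seen. Doublets were scored by Scrublet (scanpy 1.11.5) and kept, since its automatic threshold marked 0 cells, and the highest scores were left out as an alternative.

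UMIs were summed per class and library, giving CPM with exact Poisson intervals, shares with Clopper-Pearson intervals and ratios with exact conditional binomial intervals (scipy 1.17.1), all of counting error only. The scripts were tested on simulated data. The members and lists were chosen with earlier results of these data known. Text names were set by rule: the 5 members, up to 4 called genes of each list with the largest ratio (Syk, Inpp5d, Tyrobp and Ighm were added after values were seen), and the 3 genes most like each member. The equal weighting of subsets and the B cells without subclusters led by other lineages were chosen after seeing the data.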

Additional observations from a re-analysis of the deposited data

Results flagged for a closer look

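Results stood out where the mutant and WT libraries differed with opposite signs in different classes. The log2 ratio of Fcer1g, mutant over WT, was 1.24 in B cells, beside -0.82 in mature neutrophils and -0.66 in monocytes. The difference between these classes was not tested, and without the B cells in subclusters led by genes of other lineages the B cell value was -0.43, on 30 and 14 UMIs and with an interval of -1.46 to 0.53. The log2 activating-to-inhibitory ratio, mutant minus WT, was -0.13 in M1-like macrophages, beside 0.31 in Cxcl9-positive and 0.36 in M2-like macrophages. The difference between these subsets was not tested, and with 1 library per genotype it carries no error between animals.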

How the results depend on the processing

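No paired analysis was possible because each genotype had 1 library and no result came from a test. For the 5 members and the activating-to-inhibitory ratio in macrophages and monocytes, 54 of 78 alternative values moved by less than the counting interval and all kept their sign. The UMI gate for macrophages and monocytes took 750 WT and 1492 mutant cells, of which 532 and 523 were in the clustered classes. Its values thus cover many cells outside those classes, more of them in mutant. With classes from UMI gates, the log2 ratios were 0.27 for Fcgr1, -0.36 for Fcgr2b, -0.42 for Fcgr3, 0.20 for Fcgr4 and -0.58 for Fcer1g, and 0.22 for the activating-to-inhibitory ratio. With cells thinned to 2000 UMIs they were 0.32, -0.18, -0.18, 0.21, -0.44 and 0.21. With the 4 subsets weighted equally they were 0.052 for Fcgr1, 0.095 for Fcgr4, -0.43 for Fcer1g and 0.15 for the activating-to-inhibitory ratio. The stricter cell filter gave 0.36 for Fcgr1 and -0.49 for Fcer1g, the looser filter -0.23 for Fcgr2b, and 30 principal components -0.48 for Fcer1g. Adding the nearest unnamed clusters gave 0.45 for Fcgr1 and -0.54 for Fcer1g, and the mean over cells 0.30 for Fcgr1 and 0.22 for Fcgr4. Fcer1g in B cells came to -0.37 as a mean over cells and to -0.43, with an interval spanning 0, without the subclusters led by other lineages, and Fcgr4 in progenitors to -0.33 with thinning. Of the 8 calls, those of Fcgr4 in immature neutrophils and Fcgr3 in monocytes stayed past 1.5-fold in all 11 alternatives each. Fcgr2b in B cells was under 1.5-fold only without those subclusters (0.58). Cxcl9-positive macrophages were not a separate class with 30 principal components, the looser filter or no integration. Beyond equal weighting, the cause of these moves was not tested. Depth limits Fcgr1 in neutrophils and Fcgr1, Fcgr3 and Fcgr4 in B cells, which had under 50 UMIs over both libraries.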
